A study of Homo sapiens with 6 samples.

Results

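Clustered histone genes are the replication-dependent histone genes that lie together in the genome and carry their cluster number in their older symbols. The members were all symbols of the count table that begin with HIST, a cluster number from 1 to 4 and H, which gave 73 of 23368 symbols. They comprise 6 H1, 18 H2A, 20 H2B, 14 H3 and 15 H4 symbols, of which 56 belong to cluster 1 on chromosome 6, 13 to cluster 2 and 3 to cluster 3, both on chromosome 1, and 1 to cluster 4 on chromosome 12. RNA had been sequenced from HCT116, an established line of human colon cancer cells, in which ADNP was knocked down with siRNA (siADNP, 3 libraries) or which received a control siRNA (siControl, 3 libraries). ADNP is a nuclear protein with zinc fingers and a homeodomain that acts on chromatin. All 6 libraries came from the same line and differed in the siRNA alone, as far as the labels say. They are called biological replicates, with no word on separate cultures, so every p-value reflects variation among these 6 libraries, which may be technical. In bulk RNA, a change in the share of cells in S phase and a change in histone RNA per cell cannot be told apart.

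Nucleosomes hold pairs of H2A, H2B, H3 and H4 around which DNA is wound, and H1 binds the linker DNA between them. The clustered genes supply these proteins in bulk during S phase, when new DNA has to be packaged. Their mRNAs have no introns and normally end in a conserved stem-loop in place of a poly(A) tail. The stem-loop is bound by SLBP, which acts in 3' end processing, export and translation, and the U7 snRNP guides the cut just after it. NPAT, phosphorylated by cyclin E with CDK2, activates their transcription at the histone locus body. Some members also yield polyadenylated transcripts, mainly in differentiated or resting cells.

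The stem-loop is shown because it defines these mRNAs and because members that moved in opposite directions share it. It was found after the stop codon in GENCODE transcripts of 32 members, and the absence of a match in the others says only that these letters are not in the annotated transcript. Of these, 17 carried the form of HIST2H2BE, 5 that of HIST1H2BC and 5 that of HIST1H4H and HIST1H4B. Capitals mark the 6 bases on each side that form the stem and lower case the 4-base loop, written as DNA 5′ to 3′.
HIST2H2BE: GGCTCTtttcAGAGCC
HIST1H2BC: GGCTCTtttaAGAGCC
HIST1H4H: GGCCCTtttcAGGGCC
HIST1H4B: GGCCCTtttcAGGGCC

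Levels are given as CPM, the count of a gene scaled to the library's reads in genes with TMM factors, computed from the deposited counts. Reads assigned to genes numbered 7396771 to 8726017 in siADNP libraries and 8282290 to 10265175 in siControl libraries. ADNP itself stood at 46.7, 55.3 and 59.8 CPM in siADNP libraries, against 171, 155 and 167 CPM in siControl libraries, with no overlap. Of 9 markers listed for colon epithelium, EPCAM, CDH1, KRT8, KRT18 and KRT19 were above 10 CPM. Over the 6 libraries CDX2 had a mean of 7.95 CPM and KRT20 of 0.90 CPM, while VIL1 and CDX1 had 0 reads in both groups. Of 11 markers of blood cells, fibroblasts and endothelium, 9 were under 1 CPM, and CD68 was highest with a mean of 9.44 CPM with siADNP and 7.04 CPM with siControl.

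The clustered histone genes fell into those with many reads and those with almost none. A mean of at least 10 CPM over the 6 libraries was reached by 37 members, and 20 of these were at 100 CPM or more. No member lay between 5 and 10 CPM, only HIST1H2BB, HIST1H2BE and HIST1H3C lay between 1 and 5 CPM, 21 had reads but stayed under 1 CPM, and 12 had 0 reads. The 5 members with the most reads, HIST2H2BF, HIST2H2BE, HIST1H2BC, HIST1H2BD and HIST1H2AH, took 48.5% of all reads of the set, and the first 20 took 89.6%. Per kilobase of coding sequence, mean levels of the 37 members at 10 CPM or more ran from 2715 CPM for HIST2H2BF to 25.99 for HIST2H2AB. Between these lay HIST2H2BE with 2149, HIST1H2BC with 1982, HIST1H2BD with 1766 and HIST1H1C with 738. HIST1H4E, the most abundant H4, had 413. Reads outside the coding sequence are included in these levels.

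Some members with no or few reads have an identical copy. HIST2H2AA3 and HIST2H2AA4, HIST2H3A and HIST2H3C, and HIST2H4A and HIST2H4B are pairs whose coding sequences are 100% identical in GENCODE transcripts, and all 6 had 0 reads. HIST1H4J and HIST1H4K are another such pair, with 8 and 19 reads over all libraries. Reads with no unique alignment were counted for no gene, and the part of this in the counts of these pairs was not tested. Other members with few reads have no identical copy. HIST1H1B, the gene of linker histone H1.5, had 4 reads with siADNP and 6 with siControl, and none of the 50-base windows of its coding sequence occurred in a transcript of another gene. Whether such counts near 0 come from the library kit, the annotation used for counting or the cells cannot be told apart from the files. Of 30 coding members that were not tested, 17 likewise had no shared window and 10 shared more than 50% of their windows. Among 40 tested members these numbers were 16 and 7. The 7 were HIST1H3D (100%), HIST1H2AM (86.3%), HIST1H2AJ (83.7%), HIST1H2AI (82.3%), HIST2H2BF (75.3%), HIST1H2BK (74.1%) and HIST2H2BE (52.4%). The part of shared windows in their counts was not tested. The testis genes HIST1H2AA and HIST1H2BA had 0 reads in all 6 libraries.

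Low members also lay next to each other. In the order of genes along chromosome 6, the 10 neighbours from HIST1H2BG to HIST1H2BI, which include HIST1H1D, HIST1H3E, HIST1H3F and HIST1H4F, all stayed under 1 CPM and together had 50 reads in siADNP libraries and 62 in siControl libraries. They lie between HIST1H4E, with 136 ± 9.59 CPM in siADNP libraries and 121 ± 3.02 CPM in siControl libraries, and HIST1H4H, with 75.4 ± 6.58 and 89.1 ± 8.23 CPM in the same groups (SD, n = 3 each).

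**Figure D1:**
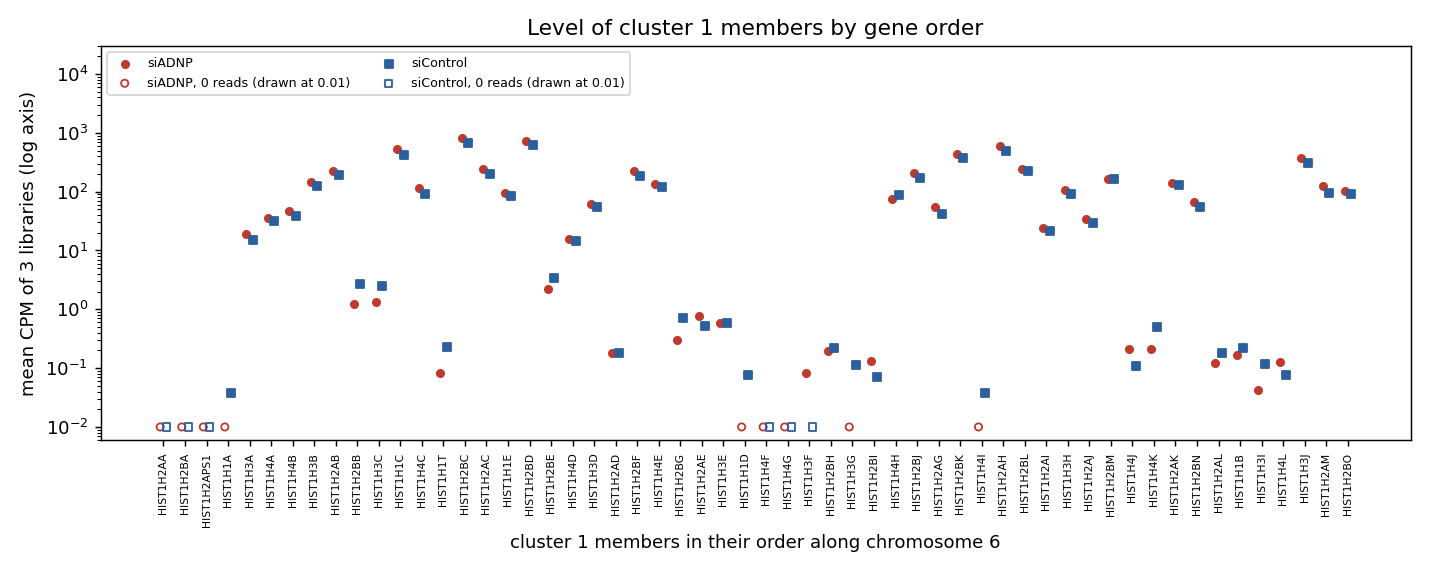
Mean CPM of the 3 siADNP libraries (red circles) and the 3 siControl libraries (blue squares) for the 56 cluster 1 members, in gene order along chromosome 6, on a log axis; open symbols are members with 0 reads in that group, drawn at 0.01. Abundant members lie above 10 CPM, and the 10 neighbours from HIST1H2BG to HIST1H2BI lie under 1 CPM in both groups.

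Most abundant members were higher with siADNP, each by a small step. A filter on low counts left 40 of the 73 members, and edgeR's quasi-likelihood test called 26 of these higher and 3 lower, with 11 not called (adjusted p under 0.05 over all 12489 genes tested). Among all genes tested, 14.6% were called higher and 13.7% lower, against 65.0% and 7.50% of the tested members. Of the 37 tested members at 5 CPM or more, 70.3% were higher and 2.70% lower. The median log2 fold change of the tested members was 0.23, where that of all tested genes was -0.00128. Rises spanned log2 fold changes from 0.16 to 0.43, or 1.12-fold to 1.35-fold. The groups did not overlap in 26 of the 40 tested members, or 65.0%, where 40.8% of all tested genes did not overlap. DESeq2's Wald test called 15 of the members higher and 1 lower, where it called 9.11% and 8.88% of all genes it could adjust. The 11 rises that it did not call were those of HIST1H1E, HIST1H2AB, HIST1H2AC, HIST1H2AH, HIST1H2BF, HIST1H2BK, HIST1H3A, HIST1H4B, HIST1H4E, HIST2H2AB and HIST2H2BE. An edgeR fit with an offset for GC content called 19 higher and 3 lower and ended the rises of HIST1H1E, HIST1H2AB, HIST1H2BK, HIST1H2BO, HIST1H3A, HIST1H3B and HIST2H2AB.

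The steps added up to a higher level of the whole set. Its summed level was 9308, 7982 and 8814 CPM in siADNP libraries, against 7591, 7692 and 6702 CPM in siControl libraries. The lowest siADNP library stood only a little above the highest siControl library, and the groups did not overlap. The means were 8701 ± 670 CPM with siADNP and 7328 ± 545 CPM with siControl (SD, n = 3 each), so the set stood at 119% of control and took 0.808% to 0.931% of gene reads with siADNP and 0.671% to 0.762% with siControl. By cluster, the sums stood at 118% of control in cluster 1, 119% in cluster 2, 124% in cluster 3 and 117% in cluster 4. Only cluster 2 overlapped between the groups, with 2152 CPM in siADNP replicate 2 and 2158 CPM in siControl replicate 2. No test was run on sums. The members varied together between libraries of a group: siADNP replicate 2 was the lowest of its group in 31 of 40 tested members, and siControl replicate 3 the lowest of its group in 26. The share of reads that the counting assigned to no feature also differed between the groups. It was 54.4% to 55.7% in siADNP libraries and 53.5% to 54.3% in siControl libraries. Its part in the result was not tested.

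**Figure D2:**
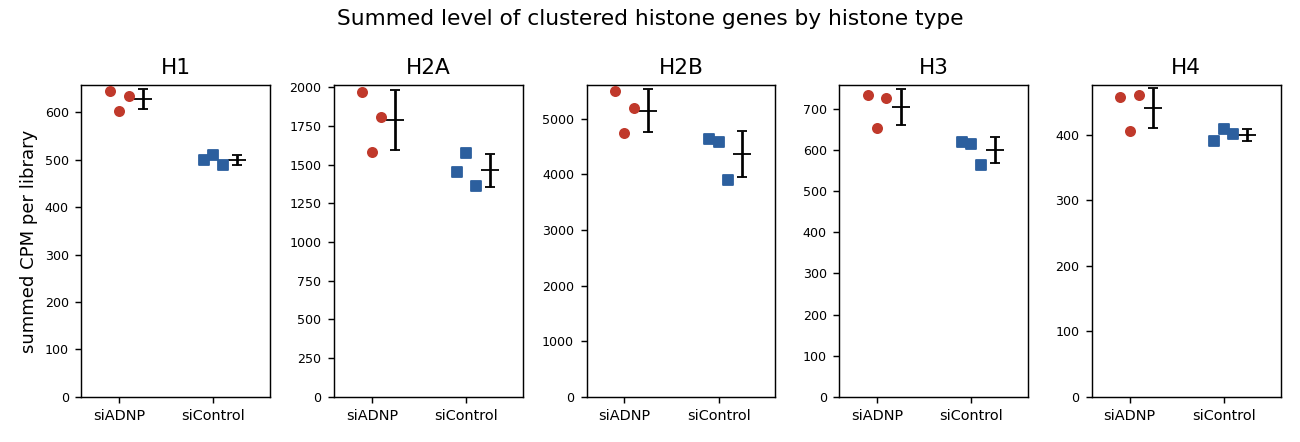
Summed CPM of all members of each histone type in the 3 siADNP libraries (red circles) and the 3 siControl libraries (blue squares), with the mean and SD beside each group in black; axes start at 0. H1, H2A, H2B and H3 do not overlap between the groups, and H4 does.

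Linker histone H1 stood at 126% of control, the highest of the 5 types. Summed H1 reads gave 646, 604 and 634 CPM with siADNP, against 499, 510 and 489 CPM with siControl. HIST1H1C, the gene of H1.2, made up 85.0% of this with siADNP and 83.0% with siControl, with 549, 509 and 543 CPM in siADNP libraries and 414, 427 and 401 CPM in siControl libraries. All 3 siADNP libraries were above every siControl library, and HIST1H1C rose with a log2 fold change of 0.36 ± 0.05 (SE, edgeR adjusted p = 2.16e-07). HIST1H1E, the gene of H1.4, rose with 0.16 (adjusted p = 0.0350, edgeR), at levels of 94.3 ± 2.92 CPM with siADNP and 84.5 ± 1.90 CPM with siControl (SD, n = 3 each). The call of HIST1H1E ended with the offset for GC content (log2 fold change 0.06, adjusted p = 0.440, edgeR), with no filter (0.0696), with the replicate block (0.0528) and in 5 of 6 fits that left out a library, all but that without siADNP replicate 3, with adjusted p from 0.0547 to 0.127. The other H1 genes, HIST1H1A, HIST1H1B, HIST1H1D and the testis gene HIST1H1T, had at most 10 reads over all 6 libraries.

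Of 18 H2A members, 11 were tested, and 8 of these rose in edgeR's test, 0 fell and 3 were not called. All 11 log2 fold changes were positive, so 0 were lower at an unadjusted p under 0.05 and 0 in DESeq2's test. HIST2H2AC, a cluster 2 gene, had 313, 252 and 304 CPM in siADNP libraries, against 222, 227 and 194 CPM in siControl libraries. Its groups did not overlap, and its log2 fold change of 0.43 ± 0.06 was the highest of all tested members (adjusted p = 1.19e-06, edgeR). HIST1H2AM had 129, 113 and 126 CPM with siADNP and 95.5, 96.3 and 95.7 CPM with siControl, so its control libraries were nearly level. It rose with 0.36 ± 0.06 (adjusted p = 9.22e-06, edgeR). HIST1H2AG had 53.4, 53.2 and 55.7 CPM with siADNP and 44.7, 40.1 and 42.4 CPM with siControl, again with no overlap, and rose with 0.35 ± 0.07.

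HIST3H2A of cluster 3 had 62.5, 53.0 and 50.7 CPM in siADNP libraries, against 41.6, 46.2 and 42.8 CPM in siControl libraries, and rose with 0.34 ± 0.08 (adjusted p = 0.000708, edgeR). HIST2H2AB, far less abundant, had 11.2, 12.005 and 11.5 CPM with siADNP and 9.31, 7.87 and 9.40 CPM with siControl. It rose with 0.39 ± 0.14 (adjusted p = 0.0325, edgeR), and the call ended without siADNP replicate 2 (0.0977), without siADNP replicate 3 (0.0573), without siControl replicate 2 (0.160) and with the GC offset (0.144), over a range of 0.0234 to 0.166. HIST1H2AH, the most abundant H2A, had 665, 519 and 592 CPM with siADNP, against 477, 537 and 453 CPM with siControl. Here siControl replicate 2 stood above siADNP replicate 2, so the groups overlapped, and the log2 fold change was 0.27 ± 0.06 (adjusted p = 0.000772, edgeR). It was 0.17 with the GC offset (0.0373), 0.16 when a replicate block was added to that offset (0.0786, not called) and 0.18 without siADNP replicate 1 (0.0291). HIST1H2AC and HIST1H2AB, whose groups overlapped, rose with 0.28 and 0.23, and the call of HIST1H2AB ended without siADNP replicate 1 (log2 fold change 0.11, adjusted p = 0.286, edgeR), siADNP replicate 3 (0.0593) or siControl replicate 3 (0.169). HIST1H2AJ, HIST1H2AK and HIST1H2AI were not called, with 0.19, 0.12 and 0.12.

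H2B genes supplied 59.3% of all reads of the set, and of 14 tested 9 rose, 1 fell and 4 were not called. HIST2H2BE of cluster 2 had 966, 827 and 963 CPM in siADNP libraries, against 751, 804 and 601 CPM in siControl libraries. The groups were separated by a narrow margin, and the log2 fold change was 0.35 ± 0.07 (adjusted p = 7.46e-05, edgeR; 0.0675 in DESeq2's Wald test). HIST1H2BC had 884, 775 and 831 CPM with siADNP and 729, 671 and 643 CPM with siControl. HIST1H2BD had 777, 680 and 745 CPM with siADNP and 642, 638 and 555 CPM with siControl. Neither overlapped between groups, and they rose with 0.28 ± 0.05 and 0.26 ± 0.05.

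HIST2H2BF, the member with the most reads, had 1247, 1059 and 1156 CPM in siADNP libraries, against 1109, 1117 and 909 CPM in siControl libraries. These values overlapped, and its log2 fold change of 0.14 ± 0.06 did not pass (adjusted p = 0.0666, edgeR). It passed without siADNP replicate 2 (0.00805), siControl replicate 1 (0.0483) or siControl replicate 2 (0.0311), with library totals (0.0367), upper-quartile scaling (0.0360) or no filter (0.0228). Its log2 fold change was 0.05 without siControl replicate 3 (0.587) and 0.08 without siADNP replicate 1 (0.371). HIST1H2BK had 492, 425 and 417 CPM with siADNP and 422, 375 and 337 CPM with siControl, which overlapped slightly. It rose with 0.23 ± 0.06 (adjusted p = 0.00315, edgeR), and the call ended without siADNP replicate 1 (0.0677) or siControl replicate 3 (0.0644) and with the GC offset (0.109), in a range of 7.56e-05 to 0.188. HIST1H2BN was the steadiest H2B, with 67.7, 67.0 and 66.0 CPM with siADNP and 55.3, 54.1 and 55.7 CPM with siControl, and rose with 0.28 ± 0.06. HIST3H2BB of cluster 3 had 52.3, 48.7 and 53.6 CPM with siADNP, against 44.2, 45.4 and 38.6 CPM with siControl. It rose with 0.26 ± 0.07 (adjusted p = 0.00727, edgeR), though not without siControl replicate 3 (0.0723). HIST1H2BM was not called, with 165 ± 13.7 CPM with siADNP and 162 ± 16.7 CPM with siControl (SD, n = 3 each), and HIST1H2BL was not called with 0.11. HIST1H2BJ, HIST1H2BF and HIST1H2BO rose with 0.28, 0.25 and 0.20. The call of HIST1H2BF ended without siADNP replicate 1 (log2 fold change 0.14, adjusted p = 0.118, edgeR), and that of HIST1H2BO without siADNP replicate 1 (0.0507) or siControl replicate 3 (0.106).

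Core histones H3 and H4 contributed 8.14% and 5.25% of the reads. Of 6 tested H3 members, 4 rose, 1 fell and 1 was not called. HIST1H3J had 394, 344 and 378 CPM with siADNP and 329, 316 and 283 CPM with siControl, without overlap, and rose with 0.26 ± 0.05 (adjusted p = 0.000283, edgeR), or 0.15 with the GC offset (0.0331, or 0.0484 when blocked by replicate). HIST1H3A had 19.1, 18.7 and 19.5 CPM in siADNP libraries, against 15.1, 15.6 and 13.9 CPM in siControl libraries. The libraries of each group lay close together, and it rose with 0.36 ± 0.11 (adjusted p = 0.0136, edgeR), but not without siControl replicate 3 (0.0689) or with the GC offset (0.0802). HIST1H3B and HIST1H3H rose with 0.21 each, and HIST1H3D was not called with 0.14. The call of HIST1H3H ended without siADNP replicate 3 (adjusted p = 0.0511, edgeR) or siControl replicate 3 (0.0599). HIST2H3D and HIST3H3, the H3 members of clusters 2 and 3 with the most reads, had 24 and 5 reads in siADNP libraries and 18 and 2 in siControl libraries, below the filter on low counts.

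H4 had the smallest summed difference, with 457, 405 and 461 CPM in siADNP libraries and 391, 409 and 401 CPM in siControl libraries, which overlapped. Of 7 tested members 3 rose, 1 fell and 3 were not called. HIST1H4C had 119, 107 and 120 CPM with siADNP, against 91.0, 93.9 and 89.0 CPM with siControl, and rose with 0.33 ± 0.06 (adjusted p = 3.06e-05, edgeR). HIST1H4E had 139, 125 and 144 CPM with siADNP and 120, 125 and 119 CPM with siControl, and its groups were separated only narrowly. It rose with 0.17 ± 0.06 (adjusted p = 0.0233, edgeR), a call that ended without siADNP replicate 1 (0.0813), siADNP replicate 3 (0.118), siControl replicate 1 (0.0773) or siControl replicate 3 (0.0871). HIST1H4B rose with 0.28, though not without siControl replicate 2 (log2 fold change 0.18, adjusted p = 0.114, edgeR). HIST4H4 of cluster 4 had 14.1, 12.6 and 15.7 CPM with siADNP and 12.1, 12.5 and 11.6 CPM with siControl. Its groups did not overlap, but its log2 fold change of 0.22 ± 0.13 was not called (adjusted p = 0.201, edgeR). HIST1H4A and HIST1H4D were not called either, with 0.16 and 0.13.

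**Figure D3:**
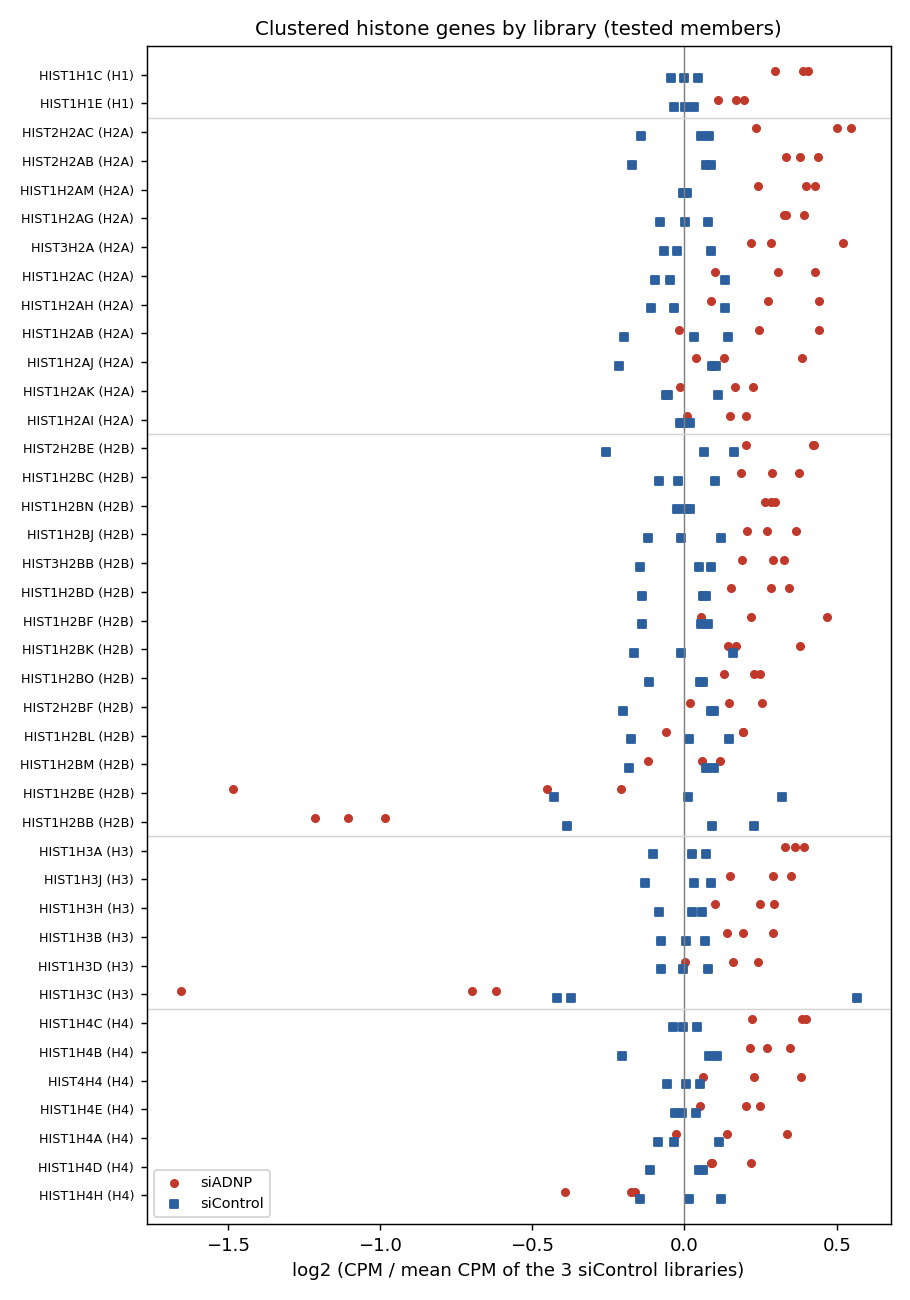
Level of each of the 40 tested members in every library, as log2 of its CPM over the mean CPM of the 3 siControl libraries; red circles are siADNP libraries, blue squares siControl libraries, and grey lines part the histone types. Most siADNP values of abundant members lie right of 0, while those of HIST1H2BB, HIST1H3C and HIST1H4H lie left of their controls.

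In contrast, 3 members were lower with siADNP: HIST1H2BB, HIST1H3C and HIST1H4H. HIST1H2BB had 1.16, 1.25 and 1.36 CPM in siADNP libraries, from 9, 11 and 10 reads, against 3.14, 2.85 and 2.05 CPM in siControl libraries, from 28, 29 and 17 reads. The groups did not overlap, and the log2 fold change was -1.10 ± 0.32 (adjusted p = 0.00787, edgeR; 0.0724 in DESeq2's Wald test). HIST1H3C had 1.54, 0.793 and 1.63 CPM with siADNP, from 12, 7 and 12 reads, against 3.70, 1.87 and 1.93 CPM with siControl, from 33, 19 and 16 reads. Here siControl replicate 1 stood well above the other libraries, and the groups did not overlap. Its log2 fold change was -0.93 ± 0.35 (adjusted p = 0.0416, edgeR), but -0.55 without siControl replicate 1 (0.342). The call of HIST1H3C also ended without siADNP replicate 1 (0.0580), siADNP replicate 2 (log2 fold change -0.65, 0.222) or siADNP replicate 3 (0.0508) and with upper-quartile scaling (0.0501), and DESeq2's Wald test gave 0.180.

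HIST1H4H was the abundant member that fell, with 78.9, 67.8 and 79.6 CPM in siADNP libraries, against 80.5, 96.9 and 89.9 CPM in siControl libraries. The highest siADNP value and the lowest siControl value almost met, and the log2 fold change was -0.25 ± 0.07 (adjusted p = 0.00592, edgeR). It did not pass without siADNP replicate 2 (-0.17, adjusted p = 0.0738) or siControl replicate 2 (-0.18, adjusted p = 0.0854). Without siADNP replicate 2, HIST1H2BB was the member still called lower, so the count of falls was then 1. HIST1H2BE, the third member between 1 and 5 CPM, had 2.95, 2.49 and 1.22 CPM with siADNP and 4.26, 3.44 and 2.53 CPM with siControl, which overlapped, and was not called (log2 fold change -0.61 ± 0.28, adjusted p = 0.109, edgeR). The log2 fold changes of HIST1H2BB, HIST1H3C and HIST1H2BE, the tested members under 5 CPM, were all negative, but HIST1H2BB and HIST1H3C passed the filter through the siControl libraries, with 3 of these and 2 of the siADNP libraries over its limit. Nothing is therefore read from their shared direction. The 33 members below the filter summed to 4.88, 4.53 and 5.42 CPM with siADNP and 6.05, 4.82 and 5.06 CPM with siControl, which overlapped. Without the filter the 21 of them with reads were tested in edgeR, and 0 were called and 0 had an unadjusted p under 0.05. Among these, chosen after its values were seen, HIST1H2BG had 2, 2 and 3 reads with siADNP and 6, 6 and 7 reads with siControl.

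**Figure D4:**
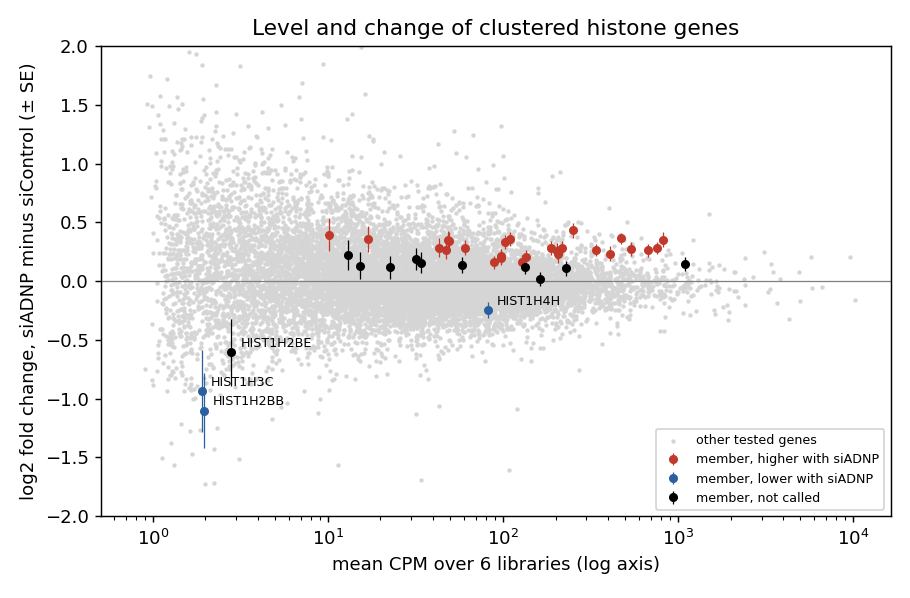
Log2 fold change (siADNP minus siControl, bars are SE) against mean CPM over 6 libraries on a log axis, for the 40 tested members (red higher, blue lower, black not called) and for the other tested genes in grey; a few grey points beyond 2 on either side are not drawn. The 37 members above 5 CPM lie close to each other with log2 fold changes from -0.25 to 0.43, and the 3 below 5 CPM lie at -0.61, -0.93 and -1.10.

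HIST1H2BB and HIST1H3C are neighbours in gene order on chromosome 6, between HIST1H2AB and HIST1H1C, which rose with 0.23 and 0.36. Their promoters are shown with that of HIST1H4H, the other member that fell, and with that of HIST2H2AC, the largest rise, whose window also spans the space to HIST2H2BE. Each is the 250 bases before the RefSeq gene start on GRCh38.p14, a newer build than that of the counts, written 5′ to 3′ on the gene's own strand. Capitals mark ATTTGCAT, the octamer element known from H2B promoters, TATAAA, the TATA box, and CCAAT, each searched on both strands.
HIST1H2BB (current symbol H2BC3), chr6:26043714-26043963, minus strand: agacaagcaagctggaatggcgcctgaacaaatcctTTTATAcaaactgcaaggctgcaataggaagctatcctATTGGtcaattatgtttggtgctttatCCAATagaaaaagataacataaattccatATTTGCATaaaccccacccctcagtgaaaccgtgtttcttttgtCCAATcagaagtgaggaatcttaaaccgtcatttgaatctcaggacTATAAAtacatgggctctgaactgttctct
HIST1H3C (current symbol H3C3), chr6:26045134-26045383, plus strand: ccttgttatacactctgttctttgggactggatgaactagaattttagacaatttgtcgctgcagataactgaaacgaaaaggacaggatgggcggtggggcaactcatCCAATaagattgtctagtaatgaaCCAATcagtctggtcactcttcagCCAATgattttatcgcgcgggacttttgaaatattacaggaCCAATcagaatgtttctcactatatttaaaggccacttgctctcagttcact
HIST1H4H (current symbol H4C8), chr6:26285535-26285784, minus strand: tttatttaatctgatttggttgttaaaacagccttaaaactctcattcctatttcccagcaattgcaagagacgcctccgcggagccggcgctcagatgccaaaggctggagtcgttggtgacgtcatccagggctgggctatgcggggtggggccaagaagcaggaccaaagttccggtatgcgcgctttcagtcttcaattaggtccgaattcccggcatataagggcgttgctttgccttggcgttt
HIST2H2AC (current symbol H2AC20), chr1:149886668-149886917, plus strand: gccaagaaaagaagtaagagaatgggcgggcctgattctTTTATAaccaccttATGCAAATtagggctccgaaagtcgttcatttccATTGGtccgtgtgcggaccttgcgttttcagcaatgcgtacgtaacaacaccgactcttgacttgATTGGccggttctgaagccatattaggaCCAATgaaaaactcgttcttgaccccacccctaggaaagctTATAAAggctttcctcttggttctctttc

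RefSeq gave promoter windows for 65 members, 69 windows in all. ATTTGCAT occurred in 11 of 16 H2A windows, 15 of 20 H2B windows, 1 of 14 H3 windows and none of the H1 or H4 windows. Of all 35116 RefSeq promoter windows of this length, 1.63% held it. The H2A and H2B counts are not of separate promoters. In 11 pairs the genes start 194 to 248 bases apart on opposite strands, so their windows largely cover the same bases. A site there can count for both genes. Some genes, such as HIST1H2BK, have 2 nearly identical windows. The H3 window with ATTTGCAT is a second window of HIST1H3D, the same stretch as that of HIST1H2AD, and the other HIST1H3D window lacks it. CCAAT occurred in 59 of 69 windows of the set, but in 3 of 13 H4 windows, against 32% of all. TATAAA occurred in 46 of 69, against 10.7% of all. The promoter of HIST1H2BB held all 3 elements, as did that of HIST2H2AC. That of HIST1H3C held CCAAT alone, and that of HIST1H4H none of the 3. A match of letters is a description, and these windows say nothing of binding. Nothing is read from them on the direction of change, since HIST1H2BB and HIST1H3C passed the filter on low counts through the siControl libraries.

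Many H2A and H2B genes start back to back. Among members with RefSeq promoters, 11 pairs of an H2A and an H2B gene start on opposite strands with 194 to 248 bases between their starts. In 8 pairs both genes were tested, and in 5 of these both rose, in 1 pair a single gene rose and in 2 pairs neither was called. HIST2H2BE and HIST2H2AC, 236 bases apart, rose with 0.35 and 0.43, and HIST1H2BC and HIST1H2AC, 246 bases apart, both rose with 0.28. In the pair of HIST1H2BL and HIST1H2AI the log2 fold changes were 0.11 and 0.12, and neither passed. The pair of HIST1H2AD and HIST1H2BF differed in level, with 4 reads for HIST1H2AD with siADNP and 5 with siControl, beside means of 221 ± 32.4 and 185 ± 14.95 CPM for HIST1H2BF in the same groups. Of the 50-base windows of HIST1H2AD, 98.0% also occur in a transcript annotated to another gene, and the part of this in its count was not tested. In GENCODE the span of HIST1H2BN begins further upstream than in RefSeq and overlaps HIST1H2AK on the other strand by 393 bases. HIST1H2BN also overlaps HIST1H2AL on the same strand by 393 bases, and HIST1H3J overlaps HIST1H2AM on the same strand by 350 bases. The values of these members are uncertain, since the sources used here do not give the annotation or strand setting of the counting.

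A list of 6 members with described polyadenylated transcripts held HIST1H1C, HIST1H2AC, HIST1H2BC, HIST1H2BD, HIST1H2BK and HIST2H2BE. It was chosen with earlier results known and may leave out other such members. All 6 rose, with a median log2 fold change of 0.28 (3 of the 6 in DESeq2's test). Of the other 34 tested members, 20 rose (58.8%) and 3 fell (8.82%), with a median of 0.21. Among all tested genes, 14.6% were higher and 13.7% lower. The difference between these sets was not tested.

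Histone genes outside the clusters mostly encode variants. Of 10 tested, edgeR called 0 higher, 3 lower and 7 neither, where 14.6% of all tested genes were higher and 13.7% lower, and the median log2 fold change was -0.03. H2AFX, the gene of H2A.X, whose mRNA is known both with a stem-loop and with a poly(A) tail, was the 1 gene higher at an unadjusted p under 0.05 (log2 fold change 0.12, adjusted p = 0.0808, edgeR), and DESeq2 called 0 higher. H3F3A, a gene of H3.3, was listed at 0 reads in all 6 libraries. Whether the library kit, the annotation, the exclusion of reads with no unique alignment or the cells gave this count was not tested. H1F0, the gene of linker histone H1.0, had 464, 476 and 504 CPM in siADNP libraries, against 567, 629 and 567 CPM in siControl libraries, and fell by 0.29 on the log2 scale (SE 0.05, adjusted p = 2.20e-05, edgeR). H2AFJ, an H2A variant gene, and H2AFY, the gene of macroH2A1, fell by 0.49 and 0.16. H2AFZ, the gene of H2A.Z, and H3F3B, a gene of H3.3, were not called, each with -0.03.

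Among 39 tested factors that make and degrade histone mRNA, 3 were higher, 4 lower and 32 not called. These 7 are 17.9%, beside 28.3% of all tested genes, and with the GC offset 11 were called. The list had a median log2 fold change of -0.02. CCNE2, cyclin E2, had 20.7, 27.6 and 25.5 CPM in siADNP libraries, against 39.5, 37.2 and 40.1 CPM in siControl libraries, and fell by 0.65 (SE 0.09, adjusted p = 7.61e-07, edgeR). XRN1, the main cytoplasmic 5' exonuclease, fell by 0.38, and ZCCHC6, an enzyme that adds uridines to RNA 3' ends, by 0.22. CTIF, a translation factor linked to the nuclear cap-binding complex, rose with 0.55 (adjusted p = 0.000409, edgeR). SLBP itself had 86.2, 96.6 and 96.9 CPM with siADNP and 105, 101 and 103 CPM with siControl. Its groups did not overlap, but its log2 fold change of -0.14 ± 0.06 was not called (adjusted p = 0.0732, edgeR). NPAT was not called either, with 90.3 ± 3.83 CPM with siADNP and 97.2 ± 4.01 CPM with siControl (SD, n = 3 each).

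Histone chaperones and import factors gave 5 rises (16.7%), 6 falls (20%) and 19 not called among 30 tested, beside 14.6% and 13.7% of all genes, with a median log2 fold change of 0.03. ANP32E, a chaperone of H2A.Z, and ATRX, which works with DAXX on H3.3, rose with 0.23 and 0.22, and CHAF1A, the large subunit of chromatin assembly factor CAF-1, with 0.22. HAT1, the acetyltransferase of newly made H4, fell by 0.29. Polyadenylated mRNAs of S phase gave 3 rises (9.09%), 5 falls (15.2%) and 25 not called among 33 tested, with a median of -0.00244. Without siControl replicate 2, 5 of these genes were called in place of 8. CCNE2 is also on this list. CDC25A, a phosphatase that promotes entry into S phase, fell by 0.35, and the ribonucleotide reductase subunits RRM1 and RRM2 fell by 0.24 and 0.25. PCNA fell by 0.18. The 3 rises were those of GINS1, PRIM1 and TYMS, with 0.29, 0.22 and 0.19.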

How the data were processed

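RNA was sequenced in 6 HCT116 libraries, 3 per group. Per the labels' protocols, Trizol-purified total RNA was treated with a double-strand DNase, and a Nugen kit was used to make libraries. The submitters' processing notes name STAR, HTSeq, DESeq2 and hg19, without versions; for the annotation and the strand setting, nothing is given in these sources. The deposited counts are whole reads per gene symbol, not normalized, and the second deposited table holds variance-stabilized values on a log2-like scale, used in an alternative only.

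Summary lines of the table entered neither library sizes nor tests: 53.5% to 55.7% of reads had no feature, 17.4% to 17.9% no unique alignment and 0.455% to 0.500% were ambiguous. Of 23368 symbols, 17978 had reads. The test was edgeR 4.0.16 under R 4.3.3 (TMM, filterByExpr with a minimum count of 10, glmQLFit, glmQLFTest, two-sided, siADNP minus siControl), with Benjamini-Hochberg adjustment over all tested genes and a threshold of 0.05. Every adjusted p without a named tool is from edgeR. Standard errors are the log2 fold change over the square root of F. The script was tested on simulated data. Libraries of a group differed by more than sampling noise (chi-square per degree of freedom 1.77 to 2.94). Members were matched to GENCODE 29 transcripts for coding sequences, GC content and shared 50-base windows, and to RefSeq (GRCh38.p14) for all 73 current names, gene order and promoters.

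Alternatives were RLE factors, upper-quartile scaling, library totals, other filters, DESeq2 1.42.0, limma 3.58.1, a replicate block, a GC offset and leaving out each library. The labels do not say that replicate numbers pair the samples, so the main test had no replicate block. The members and lists were chosen with earlier results of these data known. Named are ADNP, the 8 most abundant members, the 8 largest called rises at 5 CPM or more and all called falls. The most abundant member of each type and cluster is also named. Of each list, up to 4 called genes are named, or all where 5 or fewer were called. Other members and the remaining called S phase genes were named after their values were seen. Figures were drawn with matplotlib 3.10.9.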

Additional observations from a re-analysis of the deposited data

How the results depend on the processing

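Of the 26 rises, 11 were called in all 16 alternatives and 15 in all 6 fits that left out a library, and no called member changed sign in any alternative. DESeq2's Wald test called 15 members higher and 1 lower, 1106 and 1079 of all genes, and 3 of the 6 members listed for polyadenylated transcripts. Leaving out 1 library gave 18 to 28 members higher, 1 to 3 lower, and 5 to 9 called S phase genes. With the GC offset 19 members were higher and 3 lower, with a median log2 fold change of 0.18, and 11 genes of histone mRNA synthesis and decay were called, against 7 without it. The median GC content was 57.3% for the tested members and 48.4% for all tested genes, and the cause of these changes was not tested. The log2 ratio of summed CPM was 0.25 for all members, 0.19 to 0.31 with a library left out, and 0.33 for H1, but 0.15 for H1 without HIST1H1C, where nearly all reads left are those of HIST1H1E.

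Same-numbered libraries did not deviate together (correlations 0.02, -0.04 and -0.03). This cannot show whether they were handled together, and the labels do not say that the numbers pair the samples. With the replicate block, 25 members were higher and 3 lower, and 18 and 3 with the GC offset and the block. HIST1H1E was the rise that the block ended. The 21 members with reads but under 1 CPM gave 0 calls without the filter. Whether differences in them could be detected at this depth was not tested.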
